A study of Mus musculus with 12 samples.

Results

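The circadian clock genes described here are Per1, Per2, Per3, Cry1, Clock, Npas2, Nr1d1, Nr1d2, Dbp and Tef, measured in the newborn mouse bladder. They were found as the probe sets whose only gene symbol was one of these names, which gave 25 probe sets for 10 of the 18193 genes that have a probe set of their own, among 45037 probe sets other than controls. The levels of 12 of these probe sets, from 9 genes, were high enough to be tested. The only Nr1d1 probe set averaged 7.98 on the log2 scale, just under the limit of 8.02 below which probe sets were not tested, and the test was run on 22518 probe sets in all. The probe set of highest mean, by which each gene is shown unless stated, was 1449851_at for Per1, 1417602_at for Per2, 1421087_at for Per3, 1433733_a_at for Cry1, 1418659_at for Clock, 1421037_at for Npas2, 1426464_at for Nr1d1, 1416958_at for Nr1d2, 1438211_s_at for Dbp and 1424175_at for Tef.

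The series asked what expression of a smooth muscle transgene does to the expression profile of the bladder at postnatal day 1. The groups were SMGA/EGFP (3 arrays), transgenic FVB/N mice that carry green fluorescent protein under the smooth muscle gamma actin (Actg2) promoter; SMAA/EYFP (3 arrays), transgenic FVB/N mice that carry yellow fluorescent protein under the smooth muscle alpha actin (Acta2) promoter; and wild type (6 arrays) of the same strain. Each array held RNA of 1 whole, unpooled bladder, all animals were labelled male, and the labels name no treatment. The transgenic litters came from FVB/N females mated to transgenic males, the labels do not tie animals to litters, and the hour of collection is not given in the sources used here.

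In mammals, CLOCK or its close relative NPAS2 pairs with BMAL1 (the product of Arntl) and drives transcription from E-box sequences of the Per, Cry, Nr1d, Dbp and Tef genes. PER and CRY proteins then block that activator, while the nuclear receptors NR1D1 and NR1D2 repress Arntl and Npas2 through ROR elements and the output factors DBP and TEF act on D-boxes. Because of these loops, Arntl and Npas2 RNA peak at about the opposite time of day from Dbp, Nr1d1 and Per RNA in adult peripheral tissues, Cry1 peaks late, and Clock RNA swings little. Samples taken at different hours could therefore be apart in opposite directions for the E-box driven genes and for Npas2, depending on the hours. In rodents, rhythms of peripheral tissues are weak around birth and grow stronger afterwards.

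Promoters are shown for the genes on which the results below turn: Per1 and Npas2, whose arrays did not overlap between SMGA/EGFP and wild type, Cry1, which separated the transgenic groups, and the output factors Dbp and Tef. Dbp had the widest spread within groups of the tested genes, and Tef was in the pair of highest correlation, with Per2. The RefSeq windows (build GRCm38.p6) run from 250 bases before the start site to 50 after it, and capitals mark matches to the E-box CACGTG, the E'-box CACGTT, the D-box TTATGNAA, the ROR element TAGGTCA or the cAMP response element TGACGTCA, searched on both strands.
Per1 promoter, chr11:69098699-69098998, plus strand: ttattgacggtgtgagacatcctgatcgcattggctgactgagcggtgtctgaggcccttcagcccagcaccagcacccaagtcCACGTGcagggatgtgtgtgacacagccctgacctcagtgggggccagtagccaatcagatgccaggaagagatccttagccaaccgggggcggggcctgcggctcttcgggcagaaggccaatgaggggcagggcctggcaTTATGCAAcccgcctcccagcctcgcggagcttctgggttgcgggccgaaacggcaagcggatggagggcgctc
Tef promoter, chr15:81802423-81802722, plus strand: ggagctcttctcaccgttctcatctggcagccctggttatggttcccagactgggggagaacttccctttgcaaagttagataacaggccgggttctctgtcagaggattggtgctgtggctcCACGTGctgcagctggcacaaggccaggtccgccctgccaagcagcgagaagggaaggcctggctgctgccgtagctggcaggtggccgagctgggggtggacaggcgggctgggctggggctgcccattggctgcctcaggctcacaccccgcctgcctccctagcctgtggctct
Cry1 promoter, chr10:85185005-85185304, minus strand: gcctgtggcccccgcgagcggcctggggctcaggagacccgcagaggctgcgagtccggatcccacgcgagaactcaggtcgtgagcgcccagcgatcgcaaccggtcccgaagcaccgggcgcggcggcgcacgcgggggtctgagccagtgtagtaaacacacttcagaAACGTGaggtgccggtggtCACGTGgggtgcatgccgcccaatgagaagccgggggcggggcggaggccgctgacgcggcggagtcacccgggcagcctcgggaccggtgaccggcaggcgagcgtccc
Dbp promoter, chr7:45704997-45705296, plus strand: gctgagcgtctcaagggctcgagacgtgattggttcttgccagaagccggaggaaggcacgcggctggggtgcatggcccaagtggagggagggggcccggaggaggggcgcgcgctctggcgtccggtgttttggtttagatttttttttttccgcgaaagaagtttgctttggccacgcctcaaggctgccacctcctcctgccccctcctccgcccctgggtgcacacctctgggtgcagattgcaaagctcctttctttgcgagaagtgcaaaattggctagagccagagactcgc
Npas2 promoter, chr1:39194022-39194321, plus strand: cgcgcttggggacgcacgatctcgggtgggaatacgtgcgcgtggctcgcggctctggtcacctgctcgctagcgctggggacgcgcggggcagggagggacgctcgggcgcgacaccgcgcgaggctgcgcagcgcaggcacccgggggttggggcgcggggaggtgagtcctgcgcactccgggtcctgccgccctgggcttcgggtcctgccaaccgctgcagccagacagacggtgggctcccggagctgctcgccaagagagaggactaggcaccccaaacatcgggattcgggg

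The Per1 window shown held an E-box 166 bases and a D-box 24 bases before the start site. The Tef window shown held an E-box 127 bases before its start site, and the Cry1 window an E-box at 60 and an E'-box at 79 bases. The Dbp and Npas2 windows held none of these motifs, which says only that the letters are not in these windows. RefSeq windows were found for 9 of the 10 genes, all but Per2, 13 windows in all. Among the others, the Nr1d1 window had an E'-box 28 bases before the start, and the Per3 window had D-boxes at 205 and 158 bases. A second Tef window had an E-box at 138 bases. A second Per1 window held none of these motifs, nor did the Clock and Nr1d2 windows. Matches are a description and not sites of binding. Of 32851 promoter windows of the same length, 7.15% held the E-box, 4.68% the E'-box, 3.38% the D-box, 2.61% the ROR element and 1.79% the cAMP response element, and none of the matches listed overlapped another.

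Before further normalization, median intensity per array ran from 229.39 to 305.94. Markers of the labelled tissue were present on every array: the umbrella cell gene Upk3a lay between 14.75 and 15.30 and the smooth muscle gene Acta2 between 15.84 and 16.05 on the normalized log2 scale, which is the scale of every level below. Wild type 4 did not match its labelled sex, with an Xist intensity of 29604, against 80.1 to 250 on the other 11 arrays. Values without it are given for Cry1, for Npas2 and for counts of all probe sets past the threshold. Other values over all wild-type arrays or over the second run include it. The database record numbers in the labels run through SMGA/EGFP, wild type 1 to 3, SMAA/EYFP and wild type 4 to 6. This order is used as 2 runs, without a statement in the labels that it marks a batch, and within it SMGA/EGFP meets wild type 1 to 3 and SMAA/EYFP meets wild type 4 to 6. The p-values measure only the spread between these arrays.

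None of the 12 tested clock probe sets passed limma's test at an adjusted p of 0.05 in any of the 4 comparisons. In SMGA/EGFP against wild type, 0.0622% of all tested probe sets passed, and 6.94% had an unadjusted p under 0.05, against 2 of the 12 clock probe sets, Per1 and Npas2. In SMAA/EYFP against wild type, 0 of all probe sets (0%) passed in limma and 4.81% had an unadjusted p under 0.05, against 0 of the 12. In SMGA/EGFP against SMAA/EYFP, 0.0799% passed and 9.32% had an unadjusted p under 0.05, against 1 of the 12, Per1. In wild type of the second run against the first, 0 (0%) passed in limma and 8.16% had an unadjusted p under 0.05, against 0 of the 12. With 12 probe sets, these counts are near the shares over all probe sets in 3 of the comparisons, and the count in SMGA/EGFP against wild type rests on Per1 and Npas2.

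Per1 encodes a repressor of the clock that is also induced rapidly by glucocorticoids and cAMP signals. Its levels were 11.43, 10.60 and 10.14 on SMGA/EGFP 1, 2 and 3, 9.98, 9.97 and 9.74 on SMAA/EYFP 1, 2 and 3, and from 9.35 (median 10.02) to 10.04 in wild type. All 3 SMGA/EGFP arrays lay above all other arrays, but SMGA/EGFP 3 cleared the highest wild-type array by little, and SMGA/EGFP 1 lay far above the other 2. The groups averaged 10.73 ± 0.65 in SMGA/EGFP and 9.90 ± 0.13 in SMAA/EYFP (SD, n = 3 each), and 9.89 ± 0.27 in wild type (SD, n = 6).

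The Per1 difference between SMGA/EGFP and wild type was 0.84 ± 0.23 (log2, SE), a 1.79-fold higher level, with an unadjusted p of 0.00311 in limma and an adjusted p of 0.592. It ranked at 118 of the 22518 probe sets by p. Of all probe sets, 1.12% were higher in SMGA/EGFP with no overlap with wild type, and Per1 was the only clock gene of that kind. The value rested in large part on SMGA/EGFP 1: it was 0.49 without that array and 1.13 without SMGA/EGFP 3, with a lowest limma adjusted p of 0.145 over the arrays left out in turn. It was 0.46 with array weights and 0.93 against wild type 1 to 3, which share its run.

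Against SMAA/EYFP, Per1 was 0.83 ± 0.27 higher in SMGA/EGFP (limma unadjusted p = 0.00834, adjusted p = 0.413), again with no overlap, which 6.49% of all probe sets showed in that direction. The value was 0.48 without SMGA/EGFP 1. Both differences share the SMGA/EGFP arrays. SMAA/EYFP and wild type differed in Per1 by 0.01 ± 0.23, with a 95% interval from -0.50 to 0.51. Per1 was thus high on SMGA/EGFP arrays only, and unevenly so.

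**Figure D1:**
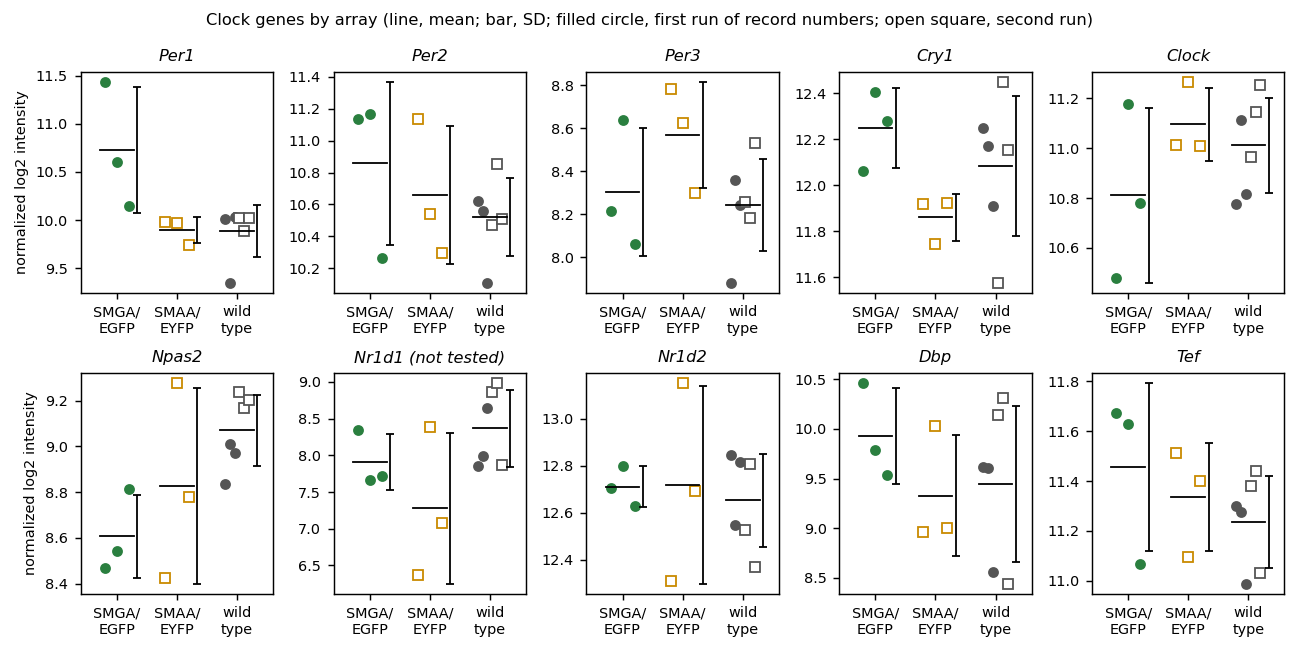
Normalized log2 intensity of the 10 clock genes (highest-mean probe set of each), 1 point per array, with the group mean as a line and the SD as a bar. Filled circles are arrays of the first run of record numbers and open squares those of the second. Per1 is above all other arrays on the 3 SMGA/EGFP arrays, Npas2 is below all wild-type arrays there, and Dbp and Nr1d1 spread widely within groups.

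The other period genes were closer between groups. Per2, also a repressor, had levels of 11.13, 11.17 and 10.27 in SMGA/EGFP, 11.13, 10.54 and 10.30 in SMAA/EYFP, and 10.11 to 10.86 with a median of 10.53 in wild type. SMGA/EGFP 1 and 2 and SMAA/EYFP 1 stood above every wild-type array, whereas the remaining transgenic arrays lay among them. Against wild type, Per2 came to 0.34 ± 0.23 in SMGA/EGFP, and to 0.14 ± 0.23 in SMAA/EYFP (limma adjusted p = 0.779 and 0.994). A second Per2 probe set, 1457350_at, which was below the limit for testing, gave 8.90, 8.46 and 7.94 in SMGA/EGFP, 8.56, 7.89 and 7.96 in SMAA/EYFP, and 6.24 to 8.05 with a median of 7.80 in wild type. Its low wild-type values were those of the second run, wild type 4 to 6, at 6.74, 7.63 and 6.24. In a limma fit without the limit it stood at 1.00 ± 0.41 in SMGA/EGFP against wild type (unadjusted p = 0.0278, adjusted p = 0.846) and -1.13 ± 0.37 in wild type of the second run against wild type of the first (unadjusted p = 0.00877, adjusted p = 0.477). The correlation of this probe set with the tested one was 0.47 over the 12 arrays, and that of the third Per2 probe set with the tested one was 0.31.

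Per3, the third period gene, had levels of 8.22, 8.64 and 8.06 in SMGA/EGFP, 8.78, 8.62 and 8.30 in SMAA/EYFP, and 7.88 to 8.53 with a median of 8.25 in wild type. SMAA/EYFP 1 and 2 and SMGA/EGFP 2 were the highest arrays and the groups overlapped. Against wild type, Per3 came to 0.06 ± 0.20 in SMGA/EGFP, and to 0.33 ± 0.20 in SMAA/EYFP, neither with a limma unadjusted p under 0.05. The other 5 Per3 probe sets were below the limit, and their correlations with the tested one ran from -0.64 to 0.17, so they did not follow it.

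Cry1, the partner of the period proteins in repression, had levels of 12.06, 12.41 and 12.28 in SMGA/EGFP, 11.92, 11.74 and 11.92 in SMAA/EYFP, and 11.58 to 12.45 with a median of 12.16 in wild type. The SMGA/EGFP arrays all lay above the SMAA/EYFP arrays, and wild type covered the range of both. The difference between SMGA/EGFP and SMAA/EYFP was 0.39 ± 0.18 (limma unadjusted p = 0.0533, adjusted p = 0.545). Per1 and Cry1 were the clock genes without overlap in that comparison, 2 of the 9 tested, where 6.49% of all probe sets were higher without overlap. Each of these groups lies in its own run of record numbers, and within the runs Cry1 was at 0.14 in SMGA/EGFP against wild type 1 to 3, and at -0.20 in SMAA/EYFP against wild type 4 to 6. Cry1 was at -0.22 ± 0.16 in SMAA/EYFP against wild type, and at -0.33 without wild type 4 (limma adjusted p = 0.991 and 0.843).

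Of the activators, Npas2 showed the larger difference. Its levels were 8.47, 8.54 and 8.81 in SMGA/EGFP, 8.43, 9.28 and 8.78 in SMAA/EYFP, and 8.84 to 9.24 with a median of 9.09 in wild type. Every SMGA/EGFP array lay below every wild-type array, SMGA/EGFP 3 only just, while SMAA/EYFP held both the lowest and the highest array of the 12. The group means were 8.61 ± 0.18 in SMGA/EGFP and 8.83 ± 0.43 in SMAA/EYFP (SD, n = 3 each), and 9.07 ± 0.16 in wild type (SD, n = 6).

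The Npas2 difference between SMGA/EGFP and wild type was -0.46 ± 0.19 (limma unadjusted p = 0.0276, adjusted p = 0.712). Non-overlapping lower values were found for 1.61% of all probe sets in this comparison, and Npas2 was the only such clock gene. Wild type itself differed between runs for Npas2, with 9.24, 9.17 and 9.20 on wild type 4, 5 and 6, against 8.84, 9.01 and 8.97 on wild type 1, 2 and 3. This difference of 0.26 ± 0.21 had no overlap, as had 7.47% of all probe sets in the same direction. Within the runs, Npas2 was at -0.33 in SMGA/EGFP against wild type 1 to 3 (limma unadjusted p = 0.147), and at -0.37 in SMAA/EYFP against wild type 4 to 6 (0.128). Without wild type 4 the difference in SMGA/EGFP was -0.43 (unadjusted p = 0.0512 in limma). The second Npas2 probe set was below the limit and correlated with the tested one at 0.22.

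Clock, the partner of BMAL1 whose RNA swings little in adult tissues, was covered by 3 tested probe sets. The one of highest mean, 1418659_at, had levels of 10.48, 11.18 and 10.78 in SMGA/EGFP, 11.01, 11.27 and 11.01 in SMAA/EYFP, and 10.78 to 11.25 with a median of 11.04 in wild type. SMGA/EGFP 1 was the lowest array and SMAA/EYFP 2 the highest, with overlap between all groups. The 3 probe sets gave -0.20 ± 0.16, 0.03 ± 0.12 and 0.21 ± 0.15 in SMGA/EGFP against wild type, thus opposite signs within 1 gene. Their correlations with each other ran from -0.13 to 0.44, so the array-to-array differences of Clock were not shared by its probe sets. The remaining Clock probe set was below the limit, and its correlations with these 3 ran from -0.48 to -0.17. For 1418660_at, the pooled SD within groups was 0.11, at percentile 4.0 of the 1000 probe sets of most similar level.

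The nuclear receptors are the repressors of the second loop. Nr1d1 had levels of 8.35, 7.66 and 7.72 in SMGA/EGFP, 6.37, 8.38 and 7.08 in SMAA/EYFP, and 7.86 to 8.99 with a median of 8.32 in wild type. SMAA/EYFP 1 and 3 were the lowest arrays of all, and SMAA/EYFP 2 lay above the wild-type median. In a limma fit without the limit on level, Nr1d1 was -1.09 ± 0.41 in SMAA/EYFP against wild type (unadjusted p = 0.0179, adjusted p = 0.996) and -0.46 ± 0.41 in SMGA/EGFP against wild type (adjusted p = 0.902), in a fit where 4.79% and 5.74% of 45037 probe sets had an unadjusted p under 0.05. Nr1d2, the related receptor, had levels of 12.71, 12.80 and 12.63 in SMGA/EGFP, 12.31, 13.15 and 12.69 in SMAA/EYFP, and 12.37 to 12.84 with a median of 12.68 in wild type. SMAA/EYFP 1 was the lowest array for Nr1d2 too, and SMAA/EYFP 2 was the highest. Against wild type, Nr1d2 came to 0.06 ± 0.16 in SMGA/EGFP, with 0.07 ± 0.16 in SMAA/EYFP. A second Nr1d2 probe set, 1416959_at, was below the limit and correlated with the tested one at 0.43. In the fit without the limit it was at -0.06 ± 0.40 in SMGA/EGFP and -0.32 ± 0.40 in SMAA/EYFP against wild type.

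Dbp and Tef encode transcription factors of the PAR bZIP family through which the clock reaches many output genes. Dbp had levels of 10.46, 9.79 and 9.54 in SMGA/EGFP, 8.96, 10.03 and 9.0 in SMAA/EYFP, and 8.44 to 10.31 with a median of 9.61 in wild type. The spread lay inside the groups: wild type 4 and 5 were high and wild type 3 and 6 low, 3.66-fold apart from the lowest to the highest, and SMAA/EYFP 2 stood apart from SMAA/EYFP 1 and 3. The pooled SD within groups was 0.69, a spread larger than that of 97.6% of the 1000 probe sets of most similar level, whose median was 0.26. The second Dbp probe set followed it (r = 0.91 over the 12 arrays) with levels of 7.42 to 8.99, so the spread was seen by both.

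The differences of Dbp were within that spread. They came to 0.48 ± 0.41 in SMGA/EGFP against wild type, -0.12 ± 0.41 in SMAA/EYFP against wild type and 0.60 ± 0.47 in SMGA/EGFP against SMAA/EYFP (limma adjusted p = 0.809, 0.998 and 0.705). The 95% interval of the first ran from -0.40 to 1.36. The estimate was a 1.40-fold level, and the interval also held no difference at all.

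Tef had levels of 11.67, 11.63 and 11.07 in SMGA/EGFP, 11.51, 11.09 and 11.40 in SMAA/EYFP, and 10.99 to 11.44 with a median of 11.29 in wild type. SMGA/EGFP 1 and 2 and SMAA/EYFP 1 were above all wild-type arrays, the same 3 arrays as for Per2. Against wild type, Tef came to 0.22 ± 0.16 in SMGA/EGFP, and to 0.10 ± 0.16 in SMAA/EYFP (limma adjusted p = 0.790 and 0.994). Of the 2 Tef probe sets that were not tested, 1450184_s_at was -0.89 ± 0.41 in SMAA/EYFP against wild type in the fit without the limit (limma unadjusted p = 0.0489, adjusted p = 0.996), opposite in sign to the tested probe set.

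**Figure D2:**
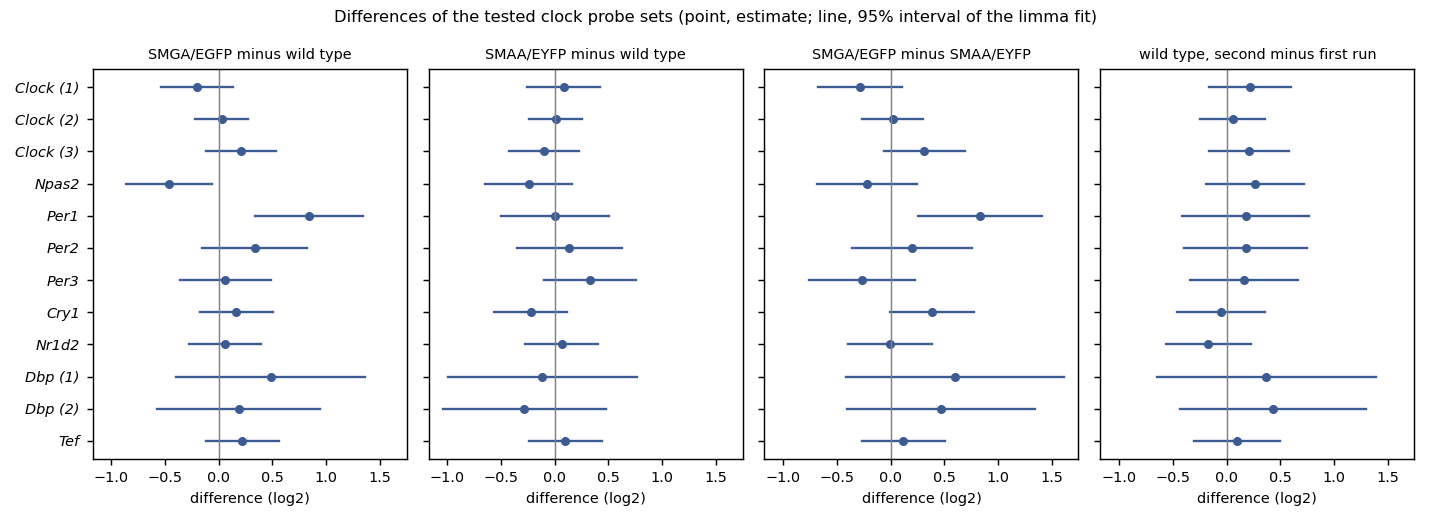
Differences (log2) of the 12 tested clock probe sets in the 4 comparisons, with 95% intervals of the limma fit. The numbers in brackets tell apart probe sets of a gene. The intervals of Per1 lie above 0 in both comparisons of SMGA/EGFP and that of Npas2 lies below 0 against wild type, and all others reach across 0; these intervals are not adjusted for the number of probe sets.

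Whether the activators and the E-box driven genes lay on opposite sides was read gene by gene and then array by array. In SMGA/EGFP against wild type, the 6 tested E-box driven genes (Per1, Per2, Per3, Nr1d2, Dbp and Tef) had differences of 0.06 to 0.84, all above 0, and the activators Clock and Npas2 had -0.20 and -0.46. Over all probe sets, 47.1% had a difference above 0. Nr1d1, which was not tested, was at -0.46, on the side of the activators, and 2 of the 6, Per3 and Nr1d2, turned negative under 3 alternatives each. Arntl, the main partner of CLOCK, was at 0.16 ± 0.12, on the side of the E-box driven genes. Clock is placed by its probe set of highest mean, and its other 2 tested probe sets, at 0.03 and 0.21, lay above 0 with the E-box driven genes. The E-box driven genes are likewise placed by their probe sets of highest mean. Among their other probe sets that were not tested, Tef 1450184_s_at (-0.53), Per3 1441445_at (-0.49), Per2 1417603_at (-0.26) and Nr1d2 1416959_at (-0.06) were below 0. Those above 0 were Per2 1457350_at (1.00), Tef 1438033_at (0.49) and the remaining Per3 probe sets (0.03 to 0.27). Nr1d1, Arntl, 2 of the 3 tested Clock probe sets and the untested probe sets below 0 were thus exceptions to opposite sides. Per1 and Npas2 were the only tested members whose arrays did not overlap.

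In SMAA/EYFP against wild type, Per1, Per2, Per3, Nr1d2 and Tef were at 0.01 to 0.33, Dbp was at -0.12 and Nr1d1 at -1.09. Clock was at 0.08 and Npas2 at -0.24, and 50.8% of all probe sets had a difference above 0. Neither side kept together there. Over the 9 tested genes, 7 were above 0 in SMGA/EGFP against wild type with a median of 0.16, and 6 were above 0 in SMAA/EYFP against wild type with a median of 0.07, against medians of -0.01 and 0.00 over all probe sets. In the comparison of wild-type runs, which holds no genotype difference, 7 of 9 were also above 0 with a median of 0.18 (all probe sets 0.02, with 54.4% above 0), as large as in SMGA/EGFP against wild type. Between the transgenic groups, 5 of 9 were above 0 in SMGA/EGFP against SMAA/EYFP with a median of 0.12 (all probe sets -0.02, with 46.1% above 0).

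By array, the mean deviation of the 7 E-box driven genes from their means over the 12 arrays was 0.48, 0.24 and -0.17 in SMGA/EGFP, while that of Clock and Npas2 was -0.47, -0.08 and -0.14. SMGA/EGFP 1 and 2 had opposite signs and SMGA/EGFP 3 did not. In SMAA/EYFP the E-box driven genes were at -0.22, 0.17 and -0.30 and the activators at -0.22, 0.33 and -0.05. Every SMAA/EYFP array had the same sign for both. The E-box driven mean holds Nr1d1, which was not tested. On SMAA/EYFP 1 its sign rested on Nr1d1, at 6.37 there against a mean of 7.98 over the 12 arrays. In wild type 1 to 6 the E-box driven genes were at -0.07, -0.13, -0.17, 0.15, 0.27 and -0.26 and the activators at -0.13, 0.12, -0.04, 0.16, 0.22 and 0.29, so that wild type 2 and 6 had opposite signs and the other 4 equal signs. Opposite signs were thus found on 4 of the 12 arrays, a count that depends on Nr1d1 for SMAA/EYFP 1. The activator mean holds Clock, whose RNA swings little in adult tissues and whose probe sets did not share its array-to-array differences. Arntl is not in it. The count therefore cannot decide whether Npas2 lay opposite to the E-box driven genes, and it was not tested.

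**Figure D3:**
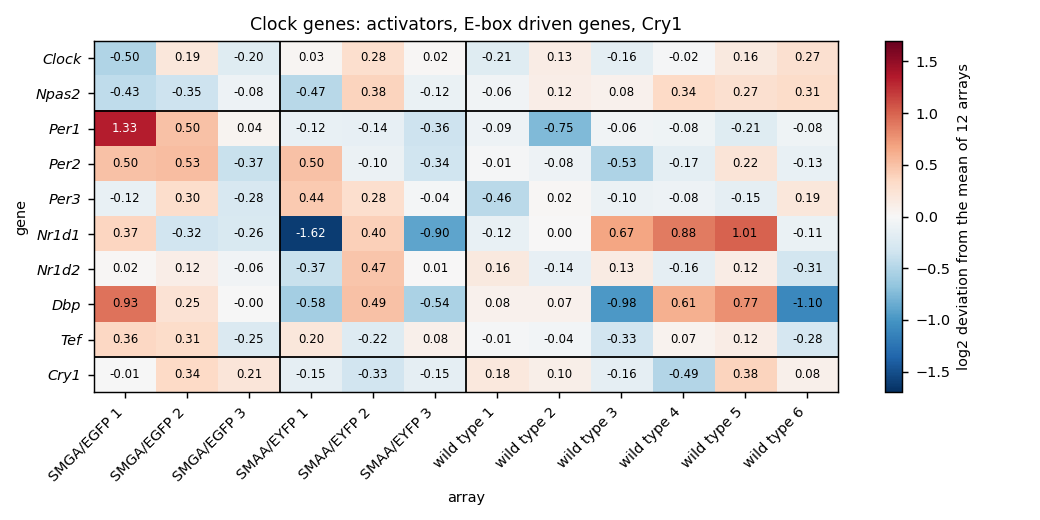
Deviation (log2) of each clock gene on each array from its mean over the 12 arrays, with red above and blue below the mean. Rows are grouped as activators, E-box driven genes and Cry1. SMGA/EGFP 1 has Per1 at 1.33 and Dbp at 0.93 with Clock at -0.50 and Npas2 at -0.43, a pattern that no other array shares in full.

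Relations between genes across the 12 arrays were computed for all 45 pairs, with a permutation test of 100000 resamples and Benjamini-Hochberg adjustment over the pairs. None passed at an adjusted p of 0.05 and 4 had an unadjusted permutation p under 0.05. Pearson's r ran from -0.63 to 0.83 with a median of 0.03. The 14 pairs of an activator with an E-box driven gene had 5 values above 0 and 9 below (median -0.10), and the 21 pairs among the E-box driven genes had 13 above 0 and 8 below (median 0.15). The medians differed little from 0, and these pairs share genes and arrays. The activator pairs include those of Clock, whose RNA swings little in adult tissues.

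The highest value was that of Per2 and Tef, with r = 0.83 and Spearman's rho = 0.78 (permutation p = 0.00134 and 0.00388, adjusted p = 0.0603 for r). It was 0.76 without the 2 arrays farthest from the Per2 median, 0.79 for deviations from the means of group and run, and 0.77 in wild type only, but 0.09 in wild type without the 2 farthest of those 6 arrays. Npas2 and Tef had the lowest, with r = -0.63 and rho = -0.59 (permutation p = 0.0301 and 0.0485, adjusted p = 0.385 for r), but -0.43 without the 2 farthest arrays and 0.17 in wild type. Within wild type, then, the Per2 and Tef value rested on 2 arrays, and Npas2 and Tef showed no negative value.

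Npas2 and Nr1d1 went the same way (r = 0.64, rho = 0.70, permutation p = 0.0226 and 0.0139, adjusted p = 0.385 for r), with 0.68 without the 2 farthest arrays, 0.47 in wild type and -0.06 in wild type without its 2 farthest arrays. Per3 and Clock did so as well (r = 0.61, rho = 0.71, permutation p = 0.0342 and 0.0133, adjusted p = 0.385 for r), with 0.69, 0.77 and 0.12 under the same restrictions. An activator and an E-box driven gene were paired in each. Dbp and Tef, both output factors, had r = 0.53 and rho = 0.58 over the 12 arrays (permutation p = 0.0780 and 0.0521, adjusted p = 0.390 for r) but 0.16 without the 2 farthest arrays, wild type 3 and 6. In wild type only, their r was 0.99 and rho 0.94 (exact permutation p = 0.00417 for r, adjusted p = 0.188 over the 45 pairs), and 0.98 without the 2 farthest of those 6. Arrays of both transgenic groups lay off that line. In SMAA/EYFP, Dbp was high on SMAA/EYFP 2, where Tef was low, and low on SMAA/EYFP 1 and 3, where Tef was high. SMGA/EGFP 2 had Tef at 11.63, above all wild-type arrays, but Dbp at 9.79. SMGA/EGFP 3 had Tef at 11.07 and Dbp at 9.54, against 11.03 and 8.44 on wild type 6.

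**Figure D4:**
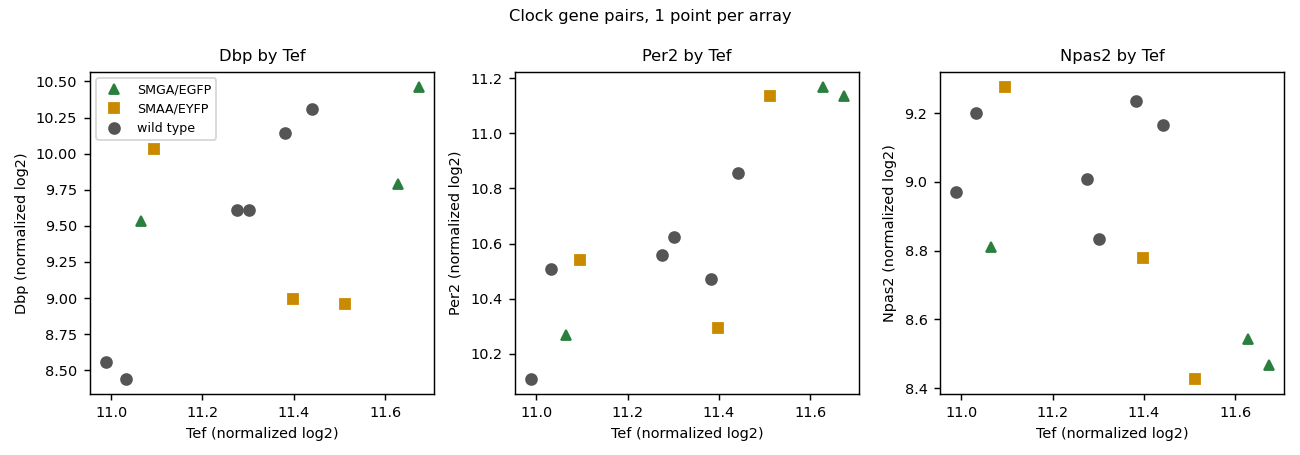
Normalized log2 levels of Dbp, Per2 and Npas2 against Tef, 1 point per array, by group. The 6 wild-type arrays lie near a line for Dbp and Tef (r = 0.99), from which arrays of both transgenic groups depart. Per2 and Tef follow each other over the 12 arrays (r = 0.83), and Npas2 is low where Tef is highest (r = -0.63).

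The rest of the clock was read from a list of 22 further genes, of which 20 had a named probe set and 16 were tested. None passed limma's adjusted threshold in any comparison. In SMGA/EGFP against wild type 11 were above 0 and 5 below (median 0.06), with 0 at an unadjusted p under 0.05. Those of smallest p were Cry2, the second cryptochrome, at 0.29 ± 0.18, Nfil3, a repressor at D-boxes, at 0.52 ± 0.31, Wee1, a cell cycle kinase under clock control, at 0.19 ± 0.14, and Arntl at 0.16 ± 0.12. Nfil3 was 12.04 on SMGA/EGFP 1, above the 10.75 and 10.71 on SMGA/EGFP 2 and 3 and the 9.97 to 11.21 of wild type. The array that was highest for Per1 was thus also highest for Nfil3.

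In SMAA/EYFP against wild type 5 were above 0 and 11 below (median -0.09), and Btrc, a ubiquitin ligase subunit that acts on period proteins, was at -0.37 ± 0.17 (limma unadjusted p = 0.0433, adjusted p = 0.991). Bhlhe40, a repressor that competes at E-boxes, was at 0.44 ± 0.24, Arntl at -0.22 ± 0.12 and Rora, the activator at ROR elements, at -0.30 ± 0.18. For SMGA/EGFP against SMAA/EYFP, 13 were above 0 and 3 below (median 0.21, against -0.02 over all probe sets). Arntl had 11.16, 10.99 and 11.17 in SMGA/EGFP, against 10.82, 10.67 and 10.71 in SMAA/EYFP, with 10.75 to 11.16 in wild type. The transgenic groups did not overlap, as 3 of the 16 genes did not in this direction, and 6.49% of all probe sets. Each of these groups lies in its own run of record numbers, with Arntl at 10.84 to 11.09 on wild type 1 to 3 and 10.75 to 11.16 on wild type 4 to 6. The Arntl difference between the transgenic groups was 0.37 ± 0.14 (limma unadjusted p = 0.0166, adjusted p = 0.467). Also in that comparison Bhlhe40 was at -0.66 ± 0.28, Usp2, a deubiquitinase under clock control, at 0.83 ± 0.38 and Cry2 at 0.43 ± 0.20. Between the wild-type runs 6 were above 0 and 10 below, and Timeless, a replication fork gene with a disputed role in the clock, was at -0.42 ± 0.17 in the second run (limma unadjusted p = 0.0250), with Hlf, a relative of Dbp and Tef, at 0.43 ± 0.24.

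Per1 answers to glucocorticoids and to immediate early signals as well as to the clock, so 2 lists of such genes were set beside it. By array, the mean deviation of the 15 glucocorticoid responsive genes was 0.62, 0.12 and -0.27 on SMGA/EGFP 1, 2 and 3, 0.37, 0.00 and -0.40 on SMAA/EYFP 1, 2 and 3, and -0.24 to 0.05 in wild type. SMGA/EGFP 1 was the highest array for this list as for Per1, and the order of the 3 SMGA/EGFP arrays was the same for both. SMAA/EYFP 1 was second for the list but lay with wild type for Per1. Sgk1, a kinase gene induced by glucocorticoids, had 14.13, 13.39 and 12.82 in SMGA/EGFP, 12.83, 12.55 and 12.31 in SMAA/EYFP, and 12.23 to 13.22 in wild type. The groups overlapped, and the difference of SMGA/EGFP from wild type was 0.75 ± 0.26 (limma adjusted p = 0.698).

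Of the 15 glucocorticoid responsive genes 12 were above 0 in SMGA/EGFP against wild type (median 0.33) and 7 in SMAA/EYFP (median -0.05), and none passed the adjusted threshold of limma in either. Those of smallest p in SMGA/EGFP were lower there: Angptl4, a secreted lipase inhibitor, at -1.30 ± 0.29 (limma adjusted p = 0.340), and Nr3c1, the glucocorticoid receptor itself, at -0.35 ± 0.09 (limma adjusted p = 0.567). The immediate early list did not separate the arrays that way. Its mean deviation was 0.24, -0.05 and -0.12 in SMGA/EGFP, 0.57, -0.24 and 0.06 in SMAA/EYFP, and -0.67 to 0.54 in wild type. Btg2, an antiproliferative early gene, was at 0.44 ± 0.18 and Fosl2, a Fos relative, at 0.19 ± 0.09 in SMGA/EGFP against wild type. The part of these lists in the Per1 values was not tested.

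**Figure D5:**
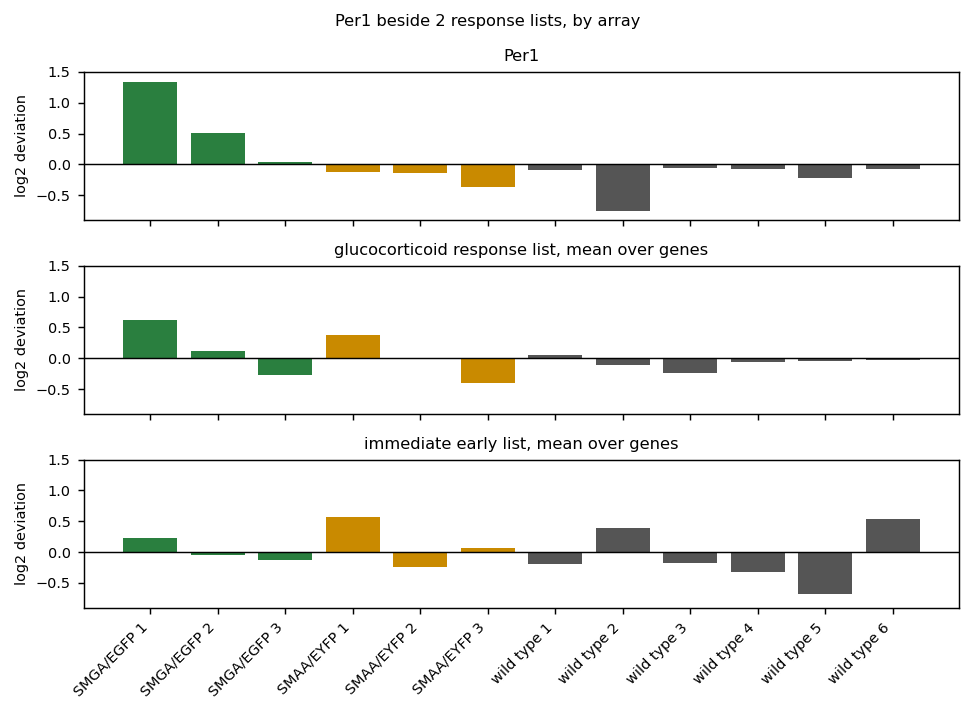
Deviation (log2) from the mean of the 12 arrays for Per1, and the mean of such deviations over the genes of a glucocorticoid response list and of an immediate early list, with SMGA/EGFP bars in green, SMAA/EYFP bars in orange and wild-type bars in grey. SMGA/EGFP 1 is highest for Per1 (1.33) and for the glucocorticoid list (0.62), and the immediate early list is highest on SMAA/EYFP 1 (0.57).

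Markers of other cell types moved between the same groups. In bulk tissue, fewer cells of a type and less RNA per cell cannot be told apart. The summed intensity of the 6 mesothelial markers was 15469 to 16972 in SMGA/EGFP, 26566 to 35459 in SMAA/EYFP and 17676 to 27332 in wild type, with no overlap of SMGA/EGFP with the others. Upk3b was by far the brightest of the 6 and weighed most in these sums. Its own levels overlapped between SMGA/EGFP and wild type, at -0.13 ± 0.10, as did those of Wt1, at -0.47 ± 0.28. All 6 were below 0 in SMGA/EGFP against wild type, 3 of them past limma's adjusted threshold, of which Gpm6a at -2.74 ± 0.34 (adjusted p = 0.00557) and Lrrn4 at -2.75 ± 0.36 (adjusted p = 0.00946) had the smallest p. Between the wild-type runs, all 6 were above 0 in the second run against the first (median 0.79), 5 of them with a limma unadjusted p under 0.05 and none past the adjusted threshold. Within the first run, the sums were 15469 to 16972 in SMGA/EGFP, against 17676 to 20477 in wild type 1 to 3. None of the 6 averaged below 7.25 in SMGA/EGFP. The sums were low on all 3 SMGA/EGFP arrays, while Per1 was highest on SMGA/EGFP 1, and the part of the mesothelium in the clock values was not tested.

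The 12 named nerve and Schwann cell markers had summed intensities of 23021 to 33596 in SMGA/EGFP, 12529 to 28283 in SMAA/EYFP and 9707 to 37896 in wild type. Between the wild-type runs, 0 of the 11 tested were above 0 in the second run against the first and 11 below (median -1.29). Of these, 8 had a limma unadjusted p under 0.05, against 8.16% of all probe sets, and none passed the adjusted threshold. In SMGA/EGFP against wild type 10 of the 11 were above 0 (median 0.70), against 47.1% of all probe sets. None of them passed limma's adjusted threshold or had an unadjusted p under 0.05. Within the first run, the sums overlapped, with 23021 to 33596 in SMGA/EGFP and 13763 to 37896 in wild type 1 to 3. The part of nerve content in the Npas2 values was not tested. Smooth muscle markers summed to 312619 to 410543 in SMGA/EGFP, 308305 to 409351 in SMAA/EYFP and 329049 to 397592 in wild type, and urothelial markers to 229473 to 269351, 250744 to 289876 and 201131 to 264195 in the same order of groups. Endothelial markers summed to 11323 to 15303, 12738 to 15922 and 14795 to 17704 in that order, and all 8 were below 0 in both transgenic groups against wild type with none past the adjusted threshold of limma. Over all probe sets, 47.1% and 50.8% were above 0 in these comparisons, which share the wild-type arrays. In SMGA/EGFP 4 of the 8 had a limma unadjusted p under 0.05, against 0 in SMAA/EYFP. Icam2 and Tek lay below wild type without overlap in SMGA/EGFP, as did 1.61% of all probe sets.

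The genes most like 4 of the members over the 12 arrays were taken from 11721 genes by Pearson's r, as a description with no test. For Per1 they were Cir1 (r = 0.92), D130037M23Rik (0.88) and Ccni (0.87), with 0.85, 0.77 and 0.53 once the 2 arrays farthest from the Per1 median were left out. For Dbp they were Pdcd4 (0.90), Nipbl (0.90) and Cdc14a (0.88), which kept 0.81, 0.80 and 0.83. For Nr1d1 they were Enpp3 (0.93), Romo1 (0.89) and Bmpr1a (0.88), and for Npas2 Rfx3 (0.89), Qser1 (0.84) and Pigq (0.84). None of these 12 genes belongs to the clock lists, and the arrays left out for Per1 were SMGA/EGFP 1 and wild type 2.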

How the data were processed

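The authors deposited linear intensity values, 1 per probe set and array, from GCOS per the submitters' processing notes; the summary algorithm is not given in the sources used here. Here 64 controls were left out, values were taken as log2(intensity + 16) and quantile-normalized, and the brighter part of the probe sets by mean level (mean over log2 8.02, the median) was tested. Of the values of an array, 8.33% to 10.5% lay below the pseudocount, so fold changes of low genes are understated. The test was limma 3.58.1 under R 4.3.3 (lmFit, then eBayes with an intensity trend, two-sided) on all 12 arrays, adjusted by Benjamini-Hochberg over all tested probe sets with a threshold of 0.05. Wild-type runs were compared in a fit with 4 cells, group by run. SE is limma's moderated standard error. The number of arrays limits the precision.

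Symbols were those of GEO's platform annotation, checked by Entrez number against RefSeq GRCm38.p6 (0 changed). Member probe sets below the limit for testing are described only in part, and a gene is shown by its highest-mean probe set. Up to 4 further clock genes and up to 2 genes of each other list were named per comparison, by smallest p. The members and lists were chosen with earlier results of these data known. Alternatives covered normalization, pseudocount, filter, variance model, array weights, arrays in the fit, 1 probe set per gene, run of record numbers, and leaving out each array.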

Additional observations from a re-analysis of the deposited data

Results flagged for a closer look

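Among the wild-type arrays, 1 value of Per1 lay far from the others. Wild type 2 had a Per1 level of 9.35, whereas the other 5 wild-type arrays lay between 9.89 and 10.04, and the gap to the nearest of them exceeded Dixon's limit of 0.625 of the range for 6 samples. Of 12 tested clock probe sets examined in the 6 wild-type arrays, this was the only one past the limit, where chance gives about 1 in 20. Without wild type 2, the Per1 difference was 0.73 in SMGA/EGFP against wild type and -0.10 in SMAA/EYFP against wild type.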

How the results depend on the processing

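Over 48 differences of tested clock probe sets and 1163 values under alternatives, 0 passed the threshold in limma, and at the main settings 3 of the 48 had an unadjusted p under 0.05. The sign changed in 52 of these values, from 19 of the differences, none with a main difference over 0.30 on the log2 scale. The count of all probe sets past the threshold in SMGA/EGFP against wild type was 14, and it was 5 with the filter at the 75th percentile, 8 with only the arrays compared, 1 within 1 run of record numbers and 6 to 20 with 1 array left out (9 without SMGA/EGFP 1 or without wild type 3, 4 or 6, and 6 without SMGA/EGFP 2). In SMAA/EYFP against wild type it was 0, and 5 both with arrays centred on their median and with array weights, with 0 throughout when 1 array was left out. In SMGA/EGFP against SMAA/EYFP it was 18, and 10 with the 75th percentile, 2 with the run as a block and 4 to 21 with 1 array left out (9 without SMGA/EGFP 2 and 4 without SMAA/EYFP 2). Between the wild-type runs it was 0, and 1 both with no filter and at the 25th percentile, 175 with array weights and 0 to 430 with 1 array left out (430 without wild type 3). The causes were not tested, except that fewer samples or probe sets enter some of these fits.

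Of the probe sets past the threshold in SMGA/EGFP against wild type, 14.3% were higher, against 25% for values as deposited, and in SMGA/EGFP against SMAA/EYFP 11.1%, against 0% with arrays centred on their median. That centring moved the median of all probe sets between the transgenic groups to -0.12. No paired analysis was possible because the labels give no replicate numbers shared between the groups. The run of record numbers is an order of records, and the 3 arrays of a transgenic group limit what differences can be told from the spread.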

Other observations

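The leukocyte markers (9 genes) summed to an intensity of 13665 to 22124 in SMGA/EGFP, 18607 to 20968 in SMAA/EYFP and 16938 to 23223 in wild type. The skeletal muscle markers (8 genes) summed to 70312 to 99011 in SMGA/EGFP, 68309 to 93447 in SMAA/EYFP and 74439 to 97810 in wild type. Both sets of ranges overlapped between the groups, and none of their tested genes passed limma's adjusted threshold in the comparisons with wild type.

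The 10 clock genes together summed to 19333 to 23627 in SMGA/EGFP, 18100 to 22058 in SMAA/EYFP and 17960 to 23026 in wild type, with overlap of all groups. The 20 further clock genes summed to 51582 to 56636, 47686 to 62003 and 47086 to 58663 in the same order of groups.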
